A study of Rattus norvegicus with 20 samples.

Results

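The genes described are the 6 protein-coding genes of rat mitochondrial DNA whose products are subunits of respiratory complexes III, IV and V. They were chosen by Ensembl ID: Cytb (ENSRNOG00000031766) for complex III, Cox1 (ENSRNOG00000034234), Cox2 (ENSRNOG00000030371) and Cox3 (ENSRNOG00000030700) for complex IV, and Atp6 (ENSRNOG00000031979) and Atp8 (ENSRNOG00000033299) for complex V. The rule names genes and uses no expression value, but the set was chosen with earlier results of these data known. They are 6 of the 30452 genes counted, and all 6 were among the 10929 genes that passed the filter on low counts. RNA was measured in 4 groups of 5 libraries: right ventricle after monocrotaline (RV MCT), right ventricle after saline (RV saline), left ventricle after monocrotaline (LV MCT) and left ventricle after saline (LV saline). All rats were male, were injected at 250 g body weight with 60 mg/kg monocrotaline or with saline, and were killed, per the labels, at a discomfort score of 7 or more. The sources used here give no strain or age. Nor do they say whether the 5 libraries of a group are 5 animals, so a p-value reflects the spread among libraries, which may be technical. Monocrotaline is a plant alkaloid that injures the lung vessels and is used to model pulmonary hypertension, in which the right ventricle pumps against a raised pressure and the left does not.

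Mitochondrial DNA codes for a small number of core subunits of the respiratory chain, and the other subunits are made from nuclear genes and imported. Complex III passes electrons on to cytochrome c, complex IV passes them to oxygen, and both move protons across the inner membrane, while complex V, the ATP synthase, uses the proton gradient to make ATP. The heart depends on this chain for most of its ATP, and mitochondrial transcripts are abundant in it. The mitochondrial genes are copied as long joint transcripts that are then cut, and the reading frames of Atp8 and Atp6 overlap on a shared messenger RNA.

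The files pair no ID with a gene name, so the tissue labels could not be checked against cell type markers. In bulk tissue, fewer cells of a type and less RNA per cell cannot be told apart. Library totals ran from 3272420 to 9227104 counts. The lowest count of any of the 6 genes in a library was 13604, and no exact 95% binomial interval of a level extended more than 1.69% from its value, which covers counting error only. The reads come from 3' ends and were not divided by gene length, so levels in CPM, which scale counts to the library total, are compared between libraries and not between genes. Some libraries stood apart. LV MCT replicate 3 and RV MCT replicate 4 lay among the saline libraries in an earlier analysis of these counts, and tests are given with and without them. Because they were picked for this, leaving them out favours larger differences between MCT and saline. Calls gained in those fits are therefore no added support. In 8 libraries, 2 in each group, the 2 genes outside the set with most counts held between 23.9% and 31.0% of the library, against 6.99% to 15.1% in the other 12. The highest of these shares were those of LV MCT replicate 3, 31.0%, and RV MCT replicate 4, 29.9%. These libraries also had the lowest TMM scaling factors of their groups, 0.788 and 0.875. Leaving them out thus also removes the extremes of that share, and its part in their position was not tested.

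Together the 6 genes held between 10.5% and 18.6% of all counts in a library. In the LV MCT libraries their share was 12.3%, 12.8%, 13.3%, 11.7% and 10.5%, against 14.5%, 14.1%, 18.03%, 17.9% and 15.1% in the LV saline libraries. Every LV MCT library lay below every LV saline library, and the means were 12.1% ± 1.07 and 15.9% ± 1.88 (SD, n = 5 each). In the RV MCT libraries the share was 10.9%, 12.6%, 13.8%, 12.4% and 16.3%, against 14.6%, 14.8%, 15.4%, 18.6% and 15.8% in the RV saline libraries. The RV groups overlapped, because RV MCT replicate 5 lay above 4 of the 5 RV saline libraries. Their means were 13.2% ± 2.01 and 15.9% ± 1.62 (SD, n = 5 each). With the counts of the 2 most abundant other genes left out of the total, the LV groups overlapped as well, at 13.4% to 19.3% in LV MCT and 17.8% to 21.01% in LV saline, and the highest LV MCT value was that of replicate 3.

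**Figure D1:**
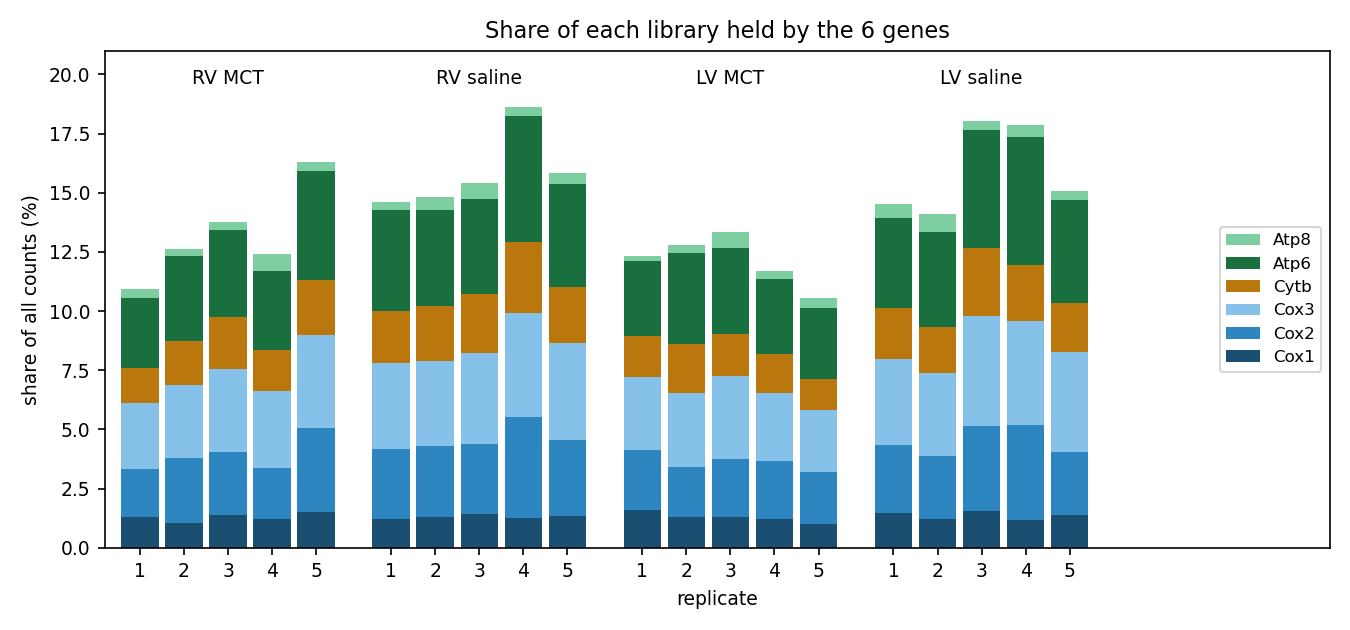
Share of all counts in each of the 20 libraries (vertical axis, percent) held by the 6 genes, stacked by gene, for replicates 1 to 5 of each group. The LV MCT bars end between 10.5% and 13.3% and the LV saline bars between 14.1% and 18.03%, while RV MCT replicate 5, at 16.3%, stands among the RV saline bars.

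In the LV, 4 of the 6 genes fell after monocrotaline: Cytb, Cox2, Cox3 and Atp6. Their log2 fold changes lay between -0.74 and -0.70, on counts scaled by the trimmed mean of M values (TMM; edgeR quasi-likelihood test, adjusted p between 0.0245 and 0.0301). Relative to saline, Cox2 fell by 40.2%, Atp6 fell by 39.6%, Cox3 fell by 39.1% and Cytb fell by 38.6%. In CPM without TMM scaling, the means of these 4 genes differed from saline by -26.0% for Atp6 to -24.2% for Cytb. Cox1 and Atp8 had negative log2 fold changes that did not pass the test. The mean of Cox1 differed from saline by -5.4% in CPM and -24.3% in TMM-scaled CPM. For Atp8 the differences were -21.6% and -33.5%. Among all 10929 genes tested, 4.06% were called lower in this comparison and 9.52% in either direction. The median log2 fold change was -0.71 over the 6 genes and 0.03 over all genes tested. In the RV none of the 6 passed the test.

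**Figure D2:**
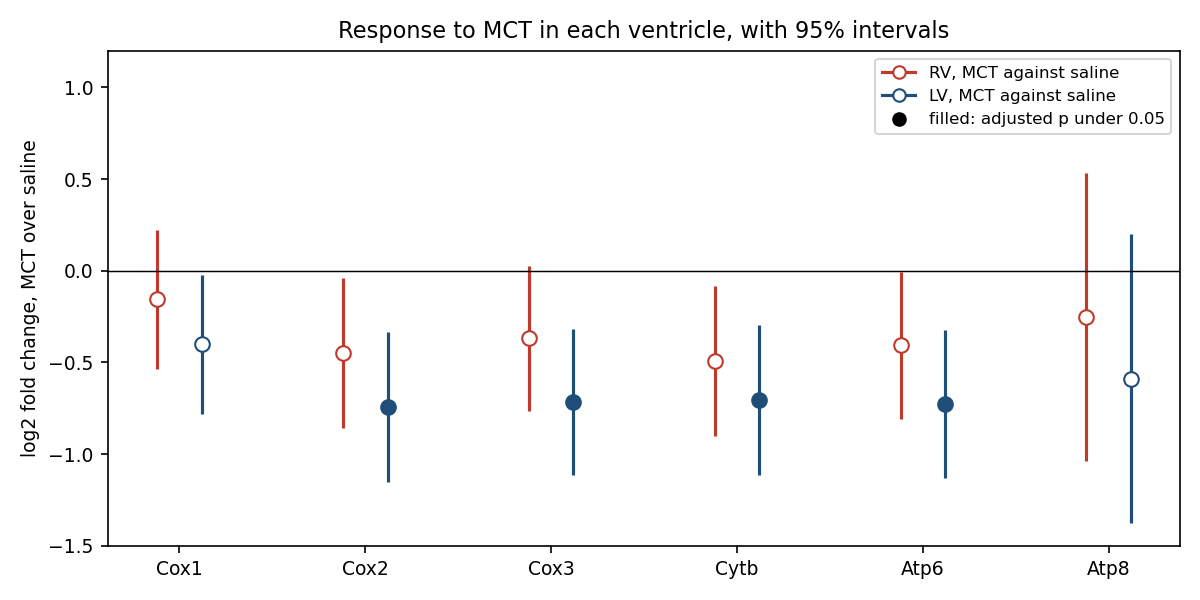
Log2 fold change of each gene, MCT over saline (vertical axis), in the RV (red) and the LV (blue), with 95% intervals from the edgeR fit of all 20 libraries; filled points have an adjusted p under 0.05. All 12 estimates are below 0, between -0.74 and -0.16, and the 4 filled ones are LV Cox2, Cox3, Cytb and Atp6.

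Cytb codes for cytochrome b, the subunit of complex III that carries its quinone-binding sites. It stood at 17301, 20804, 17952, 16667 and 13275 CPM in LV MCT libraries, against 21422, 19451, 28434, 23462 and 20624 CPM in LV saline libraries. Only LV MCT replicate 2 reached into the saline range, above LV saline replicates 2 and 5. This gave a log2 fold change of -0.70, for which edgeR gave an SE of 0.20 and an adjusted p of 0.0301. In the RV, Cytb stood at 15133, 18893, 21973, 17662 and 23148 CPM after MCT, against 21855, 23169, 24887, 29947 and 23958 CPM after saline. RV MCT replicates 3 and 5 lay above the lowest saline library and the other 3 below all of them. Its RV log2 fold change, -0.49 (SE 0.20), had the smallest adjusted p of the 6 genes in that ventricle, 0.196 in edgeR's test.

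Cox1, Cox2 and Cox3 code for the catalytic core of complex IV. Cox2 carries the copper site that takes electrons from cytochrome c. It stood at 25264, 21339, 24541, 24393 and 21869 CPM in LV MCT libraries, against 28706, 26580, 36015, 40286 and 26722 CPM in LV saline libraries. The groups did not overlap, and the MCT libraries were closer together, with a mean of 23481 ± 1755 CPM, than the saline libraries, at 31662 ± 6170.3 CPM (SD, n = 5 each). On the log2 scale the change was -0.74 (SE 0.20, edgeR adjusted p = 0.0245).

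Cox3, a core subunit without a metal centre, stood at 30954, 31063, 35084, 28805 and 25983 CPM in LV MCT libraries, against 36507, 35151, 46598, 43991 and 41969 CPM in LV saline libraries. These groups did not overlap either, although LV MCT replicate 3 lay only just below LV saline replicate 2. On the log2 scale the change was -0.72 (SE 0.19, edgeR adjusted p = 0.0245). Cox2 and Cox3 were thus 2 of 6 genes whose LV groups were apart in CPM, with MCT lower, against 0.915% of all genes tested. After TMM scaling no gene of the 6 had LV groups apart, where 3.82% of all genes did. LV MCT replicate 3 then lay among the saline libraries for each of the 6, as it already did in CPM for Cox1 and Atp8: its Cox3 level became 44498 TMM-scaled CPM, against 43114 to 54683 in LV saline.

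In the RV, Cox2 stood at 20343, 27455, 26676, 21469 and 35668 CPM after MCT, against 29446, 30154, 29621, 42681 and 32046 CPM after saline. Cox3 stood at 27697, 30776, 35042, 32286 and 39410 CPM after MCT, against 36617, 35884, 38361, 44043 and 40784 CPM after saline. For both genes 4 RV MCT libraries lay below all RV saline libraries and replicate 5 lay among them. The log2 fold changes were -0.45 (SE 0.20, edgeR adjusted p = 0.235) for Cox2 and -0.37 (SE 0.19, edgeR adjusted p = 0.324) for Cox3.

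Cox1 codes for the subunit that holds the site where oxygen is reduced. It stood at 16124, 12976, 12888, 12102 and 10168 CPM in LV MCT libraries, against 14566, 12302, 15416, 11697 and 13933 CPM in LV saline libraries. The highest and the lowest of these 10 values were both MCT libraries, replicates 1 and 5. The log2 fold change was -0.40 (SE 0.18, edgeR adjusted p = 0.170), with a 95% interval of -0.78 to -0.02 before adjustment. In the RV its levels were 12993, 10462, 13753, 12326 and 14961 CPM after MCT, against 12112, 13053, 14427, 12434 and 13570 CPM after saline. The RV ranges overlapped, and the log2 fold change was -0.16 (SE 0.18, edgeR adjusted p = 0.737).

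Atp6 codes for the membrane subunit that forms the proton path of complex V. It stood at 31538, 38286, 36402, 31397 and 30031 CPM in LV MCT libraries, against 38282, 40133, 50233, 54300 and 43568 CPM in LV saline libraries. Only LV MCT replicate 2 reached the saline range, just above LV saline replicate 1. On the log2 scale the change was -0.73 (SE 0.19, edgeR adjusted p = 0.0245). In the RV, Atp6 stood at 29460, 35498, 36943, 33243 and 45953 CPM after MCT, against 42857, 40652, 40246, 53245 and 43403 CPM after saline. Here again replicate 5 was the one RV MCT library within the saline range. The RV log2 fold change was -0.41 (SE 0.19, edgeR adjusted p = 0.276).

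Atp8 codes for a small membrane subunit of complex V and was the most variable of the 6. It stood at 2252, 3508, 6448, 3788 and 4129 CPM in LV MCT libraries, against 5723, 7369, 3590, 4921 and 4071 CPM in LV saline libraries. In the RV it stood at 3648, 2987, 3416, 7057 and 4054 CPM after MCT, against 3042, 5422, 6615, 3894 and 4537 CPM after saline. The groups overlapped in both ventricles, and the highest MCT libraries were LV replicate 3 and RV replicate 4. The log2 fold change was -0.59 (SE 0.38, edgeR adjusted p = 0.358) in the LV and -0.25 (SE 0.38, edgeR adjusted p = 0.812) in the RV, with standard errors near 2-fold those of the other genes.

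**Figure D3:**
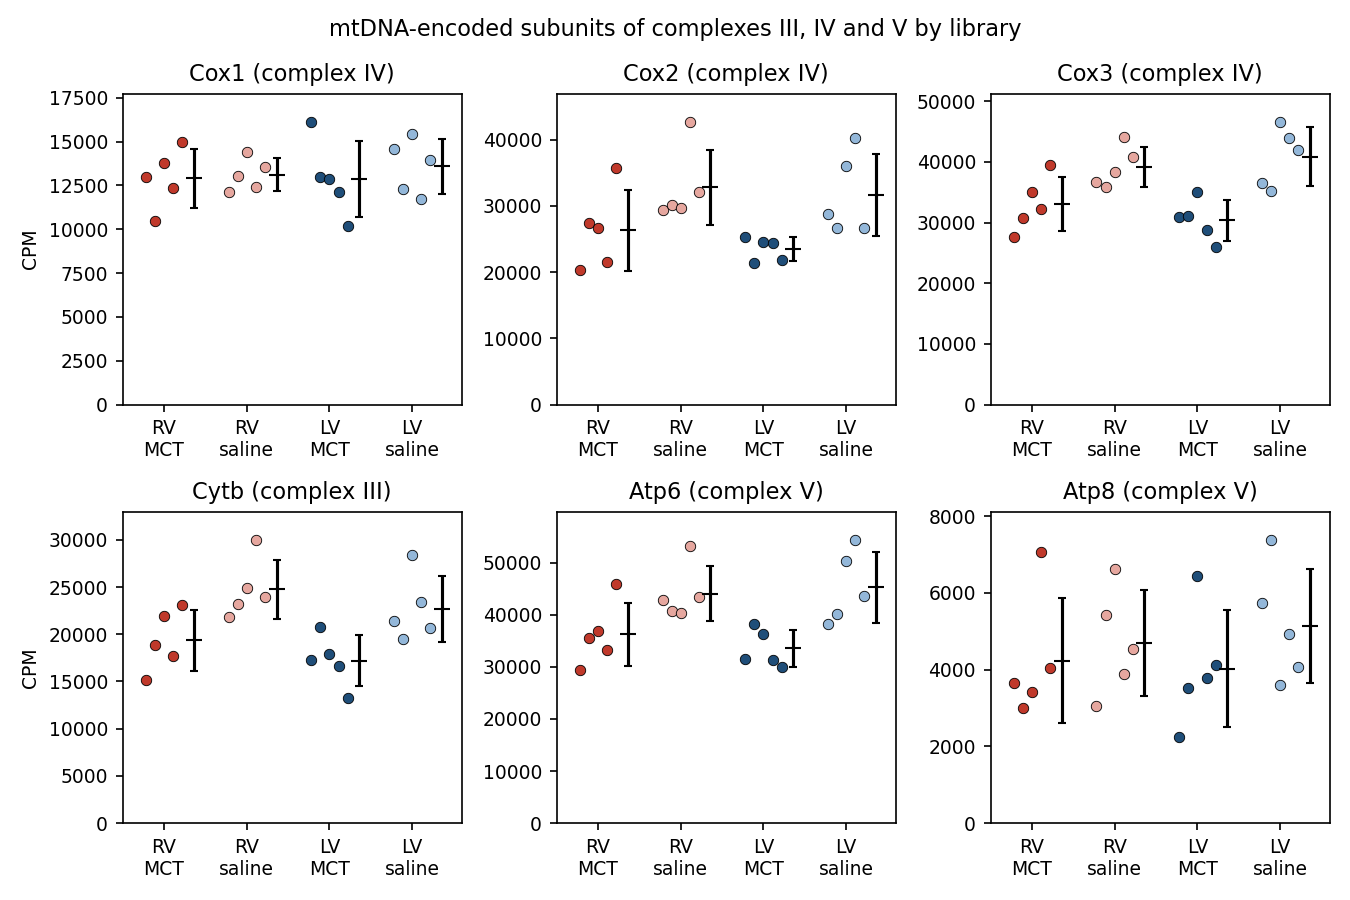
Level of each gene in CPM (vertical axes, from 0) in the 20 libraries; points from left to right are replicates 1 to 5 of a group, and the bar beside them gives the mean and SD (n = 5). Cox2 and Cox3 show LV MCT points all below the LV saline points, and Cox1 shows overlapping groups in both ventricles.

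The RV comparison called 0 of the 6 genes, beside 0.274% of all genes tested called in either direction and 0.0366% called lower. The 6 log2 fold changes lay between -0.49 and -0.16, with a median of -0.39 against 0.01 over all genes tested. Cytb, Cox2 and Atp6, 3 of the 6, had an unadjusted p under 0.05, as did 17.5% of all genes tested. None of the 6 had RV groups apart with MCT lower, where 0.576% of all genes did in CPM and 1.42% after TMM scaling. Leaving out RV MCT replicate 4 gave log2 fold changes between -0.65 and -0.22 and called none of the 6 (smallest edgeR adjusted p = 0.127), beside 707 of all 11159 genes then tested. Leaving out RV MCT replicate 5 gave -0.59 to -0.22 and also called none (smallest edgeR adjusted p = 0.1102), beside 144 of 10988 genes.

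Whether the response differs between ventricles was tested as the difference of both responses, RV minus LV. It lay between 0.21 for Cytb and 0.35 for Cox3, and no gene of the 6 passed, as none did among all genes tested (0%; edgeR adjusted p = 0.9998 for each of the 6). The 95% intervals were wide: -0.21 to 0.91 for Cox3, -0.36 to 0.79 for Cytb and -0.78 to 1.45 for Atp8. With LV MCT replicate 3 and RV MCT replicate 4 left out, the differences lay between 0.33 and 0.49 and none of the 6 passed (smallest edgeR adjusted p = 0.930), beside 1 of all 11114 genes then tested. The LV calls are therefore not shown to be particular to the LV. RV and LV levels within a treatment did not pass the test either. After MCT the log2 fold changes, RV over LV, lay between 0.03 and 0.17 (0 of 6 called, 0% of all genes). After saline they lay between -0.28 and -0.05 (0 of 6 called, against 0.0732% of all genes in either direction and 0.0183% with RV lower). The RV and LV libraries overlapped for all 6 genes within each treatment. Of all genes, those apart with RV lower made up 0.0457% in CPM and 0.0366% after TMM scaling in MCT libraries, and 0.412% and 1.77% in saline libraries. The part of all genes apart with RV higher, the direction of the 6 genes after MCT, was not counted.

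Which LV genes were called rested on how libraries were scaled and on single libraries. The size of their changes also moved with the scaling. Without scaling factors, that is on total counts alone, the LV log2 fold changes lay between -0.43 and -0.08 and no gene of the 6 was called (smallest edgeR adjusted p = 0.0532), beside 2131 of all 10929 genes, of which 92 were lower. That choice moved the median of all genes tested to 0.39, and relative to this median the 6 genes lay at -0.82 to -0.47. TMM factors were 1.11 ± 0.20 in LV MCT and 0.868 ± 0.046 in LV saline (SD, n = 5 each). With totals and factors computed without the 6 genes, Cytb, Cox2, Cox3 and Atp6 were called again, at -0.78 to -0.74, beside 1066 of all genes.

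Without LV MCT replicate 3 the LV fold changes of the 6 were larger and 5 of them were called, while over all genes the part called was 15.2%, with 6.91% lower. The log2 fold change was then -0.54 for Cox1 (SE 0.18, edgeR adjusted p = 0.0431) and -0.93 for Cox3 (SE 0.17, edgeR adjusted p = 0.00156). That of Atp8, -1.03, missed the threshold (SE 0.35, edgeR adjusted p = 0.0523). Replicate 3 was picked for lying among the saline libraries, so its removal favours larger LV differences and the added call is no support. None of the 6 was called without LV MCT replicate 1, 4 or 5 or without LV saline replicate 3 or 4, with adjusted p between 0.0552 and 0.0839 for the 4 genes called with all libraries. Their log2 fold changes in those fits stayed between -0.73 and -0.60. Over all genes, calls in those fits numbered 505, 470 and 331 without the MCT libraries and 536 and 438 without the saline libraries, against 1040 with all libraries.

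**Figure D4:**
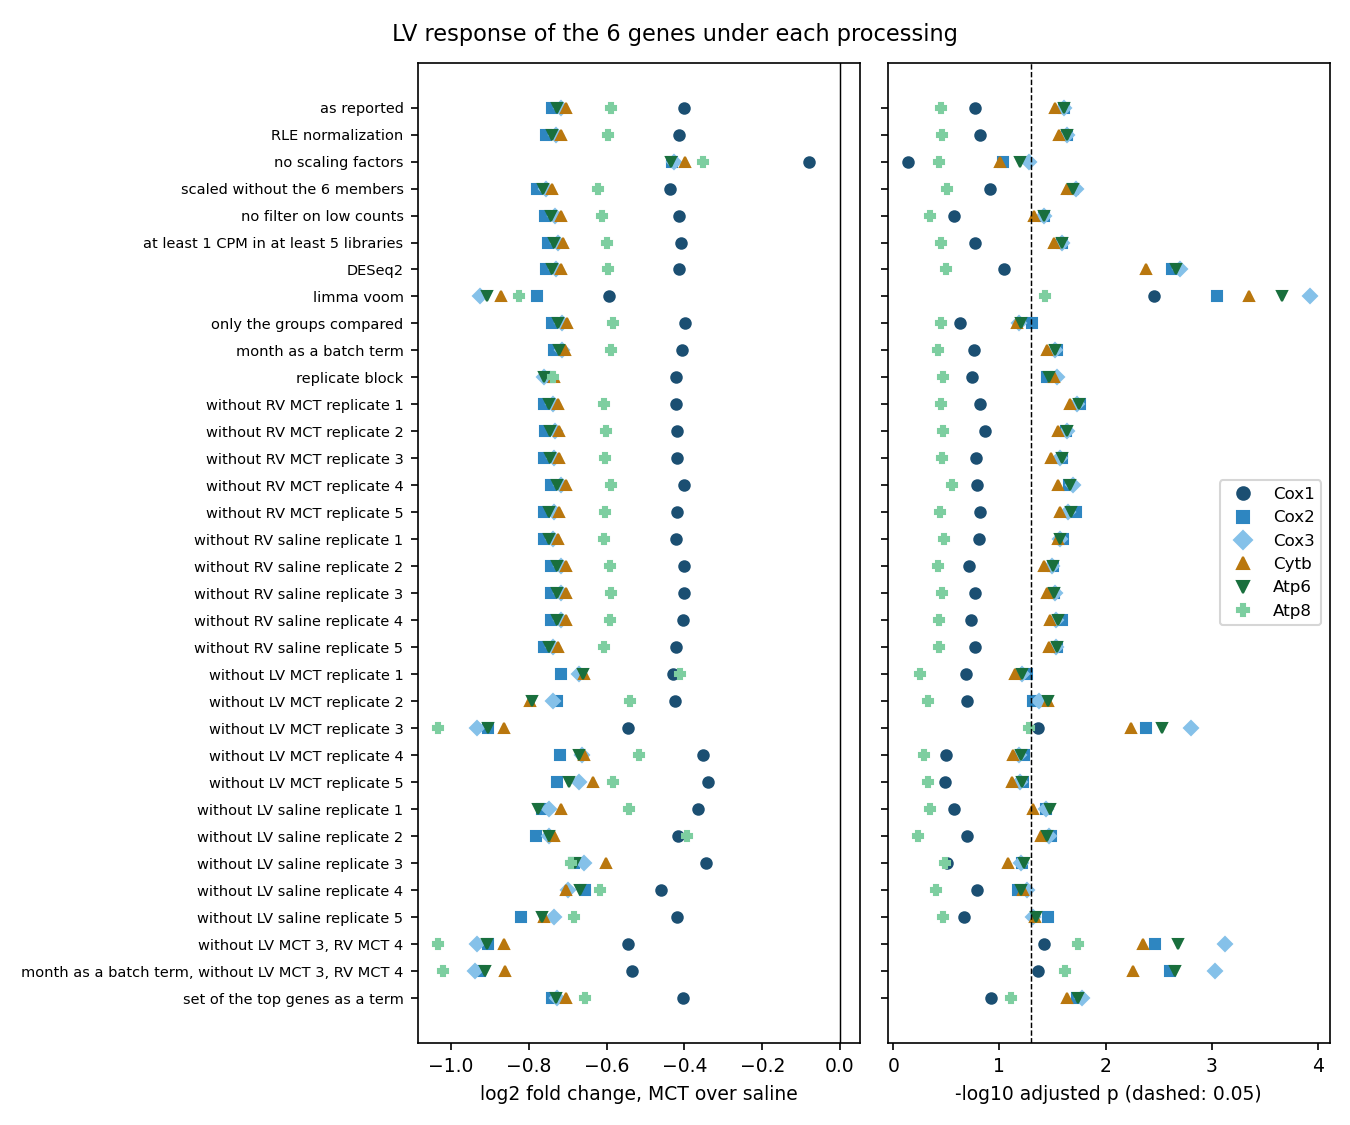
LV log2 fold change of each gene, MCT over saline (left), and -log10 of its adjusted p (right, dashed line at 0.05) under each processing setting, 1 per row. All log2 fold changes are below 0, between -1.03 and -0.08, while the adjusted p of Cox2, Cox3, Cytb and Atp6 crosses the dashed line in several rows.

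Each sample carries a description code that looks like a date. By these codes 3 libraries per group date to May or June and 2 to November. In May and June the 6 LV log2 fold changes lay between -0.67 and -0.34, and in November between -1.05 and -0.55, with 0 called in either (smallest edgeR adjusted p 0.328 in May and June and 0.0627 in November). Over all genes, 0 of 10838 were called in the LV in May and June (1330 at an unadjusted p under 0.05) and 243 of 11121 in November. All 12 of these values were negative. In the RV they lay between -0.88 and -0.36 in May and June, and between -0.33 and 0.53 in November, where Cox1 (0.15) and Atp8 (0.53) were positive. None of the 6 was called in the RV in either set, beside 188 of all genes in May and June and 0 in November (471 at an unadjusted p under 0.05). With the month as a term in the fit of all libraries, the same 4 LV genes passed, at log2 fold changes of -0.74 to -0.71, beside 982 of all genes. LV MCT replicate 3 is in the first set and RV MCT replicate 4 in the second. With the month in the fit and both of these libraries left out, a choice made after seeing the data, all 6 LV genes were called, at -1.02 to -0.53 (edgeR adjusted p between 0.000934 for Cox3 and 0.0431 for Cox1), beside 18.5% of all genes. The RV values were then -0.65 to -0.22 with 0 called (smallest edgeR adjusted p = 0.0904, for Cytb), beside 8.96% of all genes. The difference of responses, RV minus LV, lay between -0.25 and 0.13 in May and June and between 0.59 and 1.08 in November. In either set 0 of the 6 were called, as were 0 of all genes (374 and 514 at an unadjusted p under 0.05). RV over LV after MCT lay between -0.55 and -0.10 in May and June and between 0.58 and 0.82 in November. Again 0 of the 6 were called, beside 3 of 10838 genes in May and June and 0 of 11121 in November.

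Cytb, Cox2, Cox3 and Atp6 varied together. Over the 20 libraries, Pearson correlations of their log2 levels lay between 0.92 and 0.97 for each pair, and between 0.81 and 0.94 with the group means removed. Cox1 correlated with these 4 at 0.65 to 0.83 and Atp8 at 0.55 to 0.70. All 6 share the same libraries and scaling factors, so these values describe the libraries and carry no test.

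The mean part of the set's counts held by Cox1 was higher after MCT in both ventricles, which was not tested. Of the counts of the 6 genes, Cox1 held 10.6% ± 1.43 in LV MCT and 8.62% ± 1.29 in LV saline, and 9.85% ± 1.33 in RV MCT and 8.34% ± 1.01 in RV saline (SD, n = 5 each). The ranges overlapped, at 9.64% to 13.1% in LV MCT and 6.55% to 10.03% in LV saline. Cox1 counts per Cox2 count averaged 0.547 ± 0.074 in LV MCT and 0.442 ± 0.092 in LV saline, and 0.506 ± 0.107 in RV MCT and 0.409 ± 0.072 in RV saline. Such a ratio does not depend on library scaling. Mean parts of the other genes were close in the 4 groups: Cox3 24.7% to 25.7%, Atp6 27.4% to 28.4% and Cytb 14.1% to 15.6%.

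Atp8 did not keep a fixed ratio to Atp6, with which it shares a messenger RNA. Atp8 counts per Atp6 count lay between 0.124 and 0.212 in the 8 libraries where the 2 most abundant other genes took most counts, and between 0.071 and 0.121 in the other 12. The sets do not overlap, and each holds equal numbers of libraries of the 4 groups. By group the ratio averaged 0.120 ± 0.054 in RV MCT and 0.109 ± 0.040 in RV saline, and 0.120 ± 0.041 in LV MCT and 0.118 ± 0.047 in LV saline (SD, n = 5 each). The 8 libraries had totals of 3272420 to 6414662 counts and the 12 had 4439487 to 9227104. The ranges of depth overlap, and the sets differ in the share of those 2 genes by definition. The part of depth or of that share in this ratio was not tested.

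**Figure D5:**
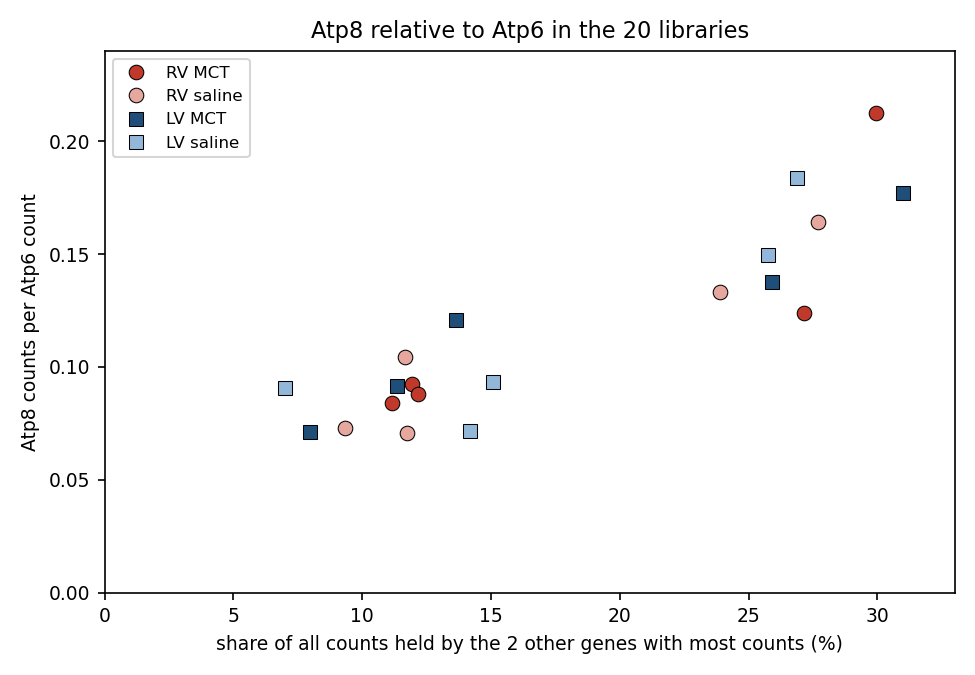
Atp8 counts per Atp6 count (vertical axis) against the share of all counts held by the 2 genes outside the set with most counts (horizontal axis, percent), 1 point per library, circles for RV and squares for LV, dark for MCT and light for saline. The 8 libraries above 23% on the horizontal axis lie at 0.124 to 0.212, and the other 12 at 0.071 to 0.121.

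The LV response was also fitted within each of these sets, which were defined from the data after they were seen and are not groups of the study. Within the 12 libraries, 3 per group, 5 genes were called in the LV, with log2 fold changes between -1.01 for Cox2 and -0.85 for Atp8, and Cox1 was not (-0.47, edgeR adjusted p = 0.174). Of all 11351 genes tested there, 11.4% were called and 6.31% were lower. Within the 8 libraries, 2 per group, the 6 values lay between -0.50 and -0.34 and none of the 6 was called (smallest edgeR adjusted p = 0.881), as none was among all 10432 genes (428 at an unadjusted p under 0.05). In the RV they lay between -0.38 and -0.09 in the 12 libraries and between -0.65 and -0.23 in the 8, with 0 of the 6 called in either, beside 79 and 0 of all genes (561 of them at an unadjusted p under 0.05 in the 8).

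Of 6877 other genes with a mean log2 CPM of at least 3, ENSRNOG00000030644 followed the mean of the 6 most closely over the 20 libraries (Pearson r = 0.94), and ENSRNOG00000001991 came next (r = 0.91). Both were picked for following the 6 with group differences included. Their fold changes below therefore describe them and are no separate support. ENSRNOG00000030644 averaged 17008 ± 2564 CPM in LV MCT and 26331 ± 3855 CPM in LV saline (SD, n = 5 each), with a log2 fold change of -0.92 (edgeR adjusted p = 0.0146). In the RV it averaged 19929 ± 4219.8 CPM after MCT and 26907 ± 3575 CPM after saline, with a log2 fold change of -0.55 (edgeR adjusted p = 0.181). ENSRNOG00000001991 averaged 541 ± 49.6 CPM in LV MCT and 675 ± 52.9 CPM in LV saline, with a log2 fold change of -0.63 (edgeR adjusted p = 0.0278). Its RV log2 fold change was -0.37 (edgeR adjusted p = 0.274).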

How the data were processed

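The deposited file holds raw read counts per Ensembl gene, 1 column per library. Per the labels' protocols, total RNA of flash-frozen ventricles was made into QuantSeq 3' FWD libraries and sequenced in 2 runs as 150 bp read pairs. The submitters' processing notes name STAR 2.7.10a, HTSeq 0.11.3, and both mRatBN7.2 and rn6, giving neither build a role. No source used here gives the strand setting or annotation, so overlapping genes (Atp8 and Atp6) and nuclear copies of mitochondrial DNA could share or lose reads. All 20 columns were matched to samples.

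Tests used edgeR 4.0.16 (R 4.3.3). All 20 libraries entered 1 robust quasi-likelihood fit with a mean per group, after filterByExpr and with TMM factors, and p-values were adjusted by Benjamini-Hochberg over the 10929 genes tested (threshold 0.05). Standard errors were derived from the F statistics. The code was tested on simulated data. CPM used total counts, and correlations used log2 CPM with TMM scaling and a prior count of 2. No 2 libraries of a group agreed within sampling noise (chi-square per degree of freedom 3.83 to 103 over 40 pairs). RV and LV libraries of the same treatment and number carry the same date-like description code, and whether they come from 1 animal is not stated; their deviations from the group means correlated at -0.35 to 0.24 after MCT and -0.18 to 0.59 after saline, where 3 of 5 matched their own number best, and a fit with this pairing as a block was an alternative. Alternatives were other scaling and filters, DESeq2 1.42.0, limma 3.58.1 voom with quality weights, the month or a replicate block in the fit, only the groups compared, and leaving out libraries. The members, lists and most alternatives were chosen with earlier results of these data known. Besides the 6 members, the rule for named genes took the 2 genes of highest correlation, by ID. The lists of nuclear subunits, complex I genes and cell type markers were set by symbol, and the reference table paired 0 of its 47357 genes with an Ensembl ID, so they were not used here.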

Additional observations from a re-analysis of the deposited data

Results flagged for a closer look

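Of 48 sets of 5 libraries examined, 4 held a library whose gap to its nearest neighbour was large relative to the range of the set (Dixon's criterion, 0.71 for 5 samples). By group, the sets were the CPM of each gene, the share of the 6 genes and the part held by Cox1. Cox1 per Cox2, Atp8 per Atp6, library totals and TMM factors made up the rest. Chance flags about 1 in 20 such sets. RV saline replicate 4 stood above the other RV saline libraries for Atp6, at 53245 CPM, and for Cox2, at 42681 CPM. RV MCT replicate 4 stood above the other RV MCT libraries for Atp8, at 7057 CPM. LV MCT replicate 1 stood above the other LV MCT libraries in the part of the 6 genes' counts held by Cox1, at 13.1%.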

How the results depend on the processing

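Relative to the 4 LV genes called beside 1040 of all genes, the count was 0 beside 2131 with no scaling factors, 1 (Cox2) beside 827 of 9980 with only the LV libraries fitted, 6 beside 2891 with limma voom, 6 beside 2015 of 11114 with LV MCT replicate 3 and RV MCT replicate 4 both left out, 6 beside 2057 with the month as a term as well, and 4 under the other alternatives that kept all libraries, among them a term for the 8 libraries rich in the 2 most abundant other genes, which was chosen after seeing the data. Over all genes, those other alternatives called 549 to 1484. The count of members ran between 0 and 5 with each library left out in turn, beside 331 to 1701 of all genes. In the other comparisons 0 of the 6 were called under every alternative run. The calls among all genes in these fits varied. For MCT against saline in the RV they ran from 0 to 1077 of 11114, the latter with both libraries left out. For the difference of responses and for RV over LV after MCT they ran from 0 to 2. For RV over LV after saline they ran from 0 to 114, the latter with limma voom. All LV and RV log2 fold changes, MCT over saline, stayed negative in all 33 alternatives. Fits within a month or a set of libraries are not among these, and in the RV in November Cox1 (0.15) and Atp8 (0.53) were positive. Values near 0 changed sign: RV over LV after saline became 0.0505 for Cox2 and 0.13 for Cytb with no scaling factors. With single libraries left out, RV over LV after saline ran between -0.11 and 0.056 for Cytb, RV over LV after MCT between -0.044 and 0.17 for Cox1 and between -0.34 and 0.497 for Atp8, and the difference of responses between -0.058 and 0.78 for Atp8; the cause was not tested. Without the 2 most abundant other genes in the total, the mean share of the 6 genes was 16.2% in RV MCT against 19.2% in RV saline, and 15.0% in LV MCT against 19.4% in LV saline, higher by construction. MCT and saline libraries of the same number fell in the same set of months by their codes. Those of number 4 carried the same code date. The sources used here pair them in no other way, and their deviations correlated at -0.32 to 0.22. With these numbers as a replicate block, 4 members were called in the LV, at log2 fold changes of -0.76 to -0.74, and 0 in the RV. Of all genes, the block called 549 in the LV and 0 in the RV (1686 at an unadjusted p under 0.05), against 1040 and 30 without it. With RV and LV libraries of the same code as blocks, 0 members were called for RV over LV or for the difference of responses, which lay between 0.24 and 0.44, and of all genes 9 against 8 were called for RV over LV after saline. Counting error is small for these abundant genes, so the 5 libraries per group limit the precision.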
